A study of Mus musculus with 3 samples.

Results

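The aminoacyl-tRNA synthetases of mouse liver were examined as a list of 36 nuclear genes, 20 of which encode the cytosolic enzymes and 16 the mitochondrial enzymes. The list was set by what the enzymes do, though earlier results of these data were known, and the mitochondrial genes are those whose symbol ends in 2. A probe set that named only the gene was present for 35 of the 36. Dars, the cytosolic aspartate enzyme, was not analysed here. Of the 35, 34 lay in the upper 50% of mean signal and were kept (19 cytosolic and 15 mitochondrial), among 11341 kept genes of 18193 named on the array.

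Livers came from male C57BL/6J mice on 3 diets. HF+SFC mice received a high-fat diet (60% of energy from fat, 20% from protein and 20% from carbohydrate) with sodium ferrous citrate, an iron supplement, at 0.023% by weight. HF mice received the high-fat diet alone, and Control mice a diet with 10% of energy from fat, 20% from protein and 70% from carbohydrate. Both base diets contained iron. Feeding began at 6 weeks of age and lasted 15 weeks, and the mice were briefly fasted before collection. The age of 21 months in the labels does not match these times. Material from all mice of a group was mixed and read on 1 Affymetrix mouse genome array, giving 3 arrays. With no replicates there is no test and no p-value, and a ratio compares 2 mixed samples without a replicate check. HF over Control and HF+SFC over HF share the HF array, so a value particular to that array enters both ratios with opposite sign.

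An aminoacyl-tRNA synthetase joins an amino acid to its tRNA at the cost of ATP, and the charged tRNA then carries that amino acid to the ribosome. The cytosolic enzymes serve the translation of nuclear-encoded mRNAs, and several of them are held together in the multisynthetase complex. The mitochondrial enzymes are encoded in the nucleus, imported, and serve the translation of the respiratory chain subunits that mitochondrial DNA encodes. Gars and Kars each encode both forms. When amino acids run short, uncharged tRNA activates the kinase GCN2, phosphorylated eIF2α raises translation of the transcription factor ATF4, and many cytosolic synthetase genes are among its targets. Class I and class II synthetases differ in the fold of their catalytic domain.

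The promoter sequences are shown because this known link runs through a short DNA element. The core of the amino acid response element bound by ATF4 with C/EBP partners was searched as TGATGNAA (reverse complement TTNCATCA, both strands) in RefSeq windows running from 250 bases before to 50 bases after each start. It was found in 1304 of 32851 windows (3.97%). Of the 27 synthetase genes with a window, 5 held it, namely Aars, Gars, Iars, Tars and Yars. All 5 belong to the cytosolic genes listed as ATF4-responsive, of which 8 had a window. It was found in 0 of 5 other cytosolic genes and in 0 of 14 mitochondrial genes. Aars2 had 2 overlapping windows and every other gene 1, and a match of letters describes no binding. The 30 bases around the match in Gars, Iars, Tars and Yars are printed 5′ to 3′ on the strand of the gene, with the matching letters in capitals (GRCm38.p6).
Gars (chr6:55037960-55037989, + strand): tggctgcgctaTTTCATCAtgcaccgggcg
Iars (chr13:49682126-49682155, + strand): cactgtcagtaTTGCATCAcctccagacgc
Tars (chr15:11399655-11399684, - strand): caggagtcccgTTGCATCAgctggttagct
Yars (chr4:129189895-129189924, + strand): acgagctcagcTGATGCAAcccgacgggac

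The printed matches began 30 bases before the start in Gars and 15 before in Tars, and 7 bases after it in Iars and 3 after it in Yars. The 250 bases before the starts of Tars and Iars2 are given in full, as a cytosolic gene with a low and a mitochondrial gene with a high ratio of HF over Control. Capitals in Tars mark the match, and Iars2 holds none.
Tars (chr15:11399659-11399908, - strand): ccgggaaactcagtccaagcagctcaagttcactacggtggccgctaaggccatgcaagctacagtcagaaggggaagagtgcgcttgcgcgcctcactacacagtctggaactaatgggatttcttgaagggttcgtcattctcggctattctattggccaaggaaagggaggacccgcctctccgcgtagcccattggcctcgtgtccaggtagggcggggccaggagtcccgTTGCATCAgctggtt
Iars2 (chr1:185329402-185329651, - strand): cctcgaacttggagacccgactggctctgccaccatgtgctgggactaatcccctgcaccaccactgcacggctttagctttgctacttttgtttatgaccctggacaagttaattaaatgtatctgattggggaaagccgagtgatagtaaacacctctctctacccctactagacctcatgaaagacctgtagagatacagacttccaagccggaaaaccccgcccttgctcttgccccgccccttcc

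A level is given below as the MAS5 signal, a linear array intensity, and a difference as the log2 ratio of the signals of 2 arrays, with 1.5-fold taken as the threshold. No replicate error was available, and the SD of log2 ratios between probe sets of the same gene was used as a scale. Those probe sets were read on the same arrays, so this SD holds no variation between mice or mixed samples. A ratio beyond it may still lie within that variation. The SD was 0.196 for HF over Control, 0.172 for HF+SFC over HF and 0.204 for HF+SFC over Control in the upper 25% of signal. In the kept probe sets below that it was 0.480, 0.451 and 0.497. Of the 34 kept synthetases, 16 cytosolic and 8 mitochondrial genes lay in the upper 25%. Hepatocyte markers were present as labelled, with all 11 measured on the array kept, while only 2 of 10 lymphocyte markers on the array were kept.

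No cytosolic synthetase reached 1.5-fold in HF over Control, but most were slightly lower. The ratio was below 0 for 14 of 19 and above 0 for 5, and the median was -0.05, against 0.03 over all kept genes. The list counted 0 genes higher and 0 lower by 1.5-fold, where 11.3% of all kept genes were higher and 5.84% were lower. In the upper 25% of signal, where 16 of the 19 lay, the cytosolic median was -0.07, against -0.01 for 6834 genes. Of those 6834 genes, 444 were higher and 283 lower by 1.5-fold, a smaller share than over all kept genes. The enzymes for threonine and alanine stood lowest.

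Tars, which charges tRNA with threonine, had a signal of 3731 in HF+SFC and 3665 in HF, against 5152 in Control. Both high-fat arrays were therefore below Control, HF by 1.41-fold (log2 ratio -0.49) and HF+SFC by 1.38-fold (-0.47), which in each case exceeded the probe-set SD. The gene was read by 1 probe set. Aars, the alanine enzyme, had 4195 in HF+SFC, 3639.9 in HF and 4634 in Control. HF was the lowest of the 3 arrays, 1.27-fold below Control (-0.35), and HF+SFC lay between. A dimmer kept probe set of Aars gave -0.21 for the same ratio, and both probe sets were below 0.

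The subunits of cytosolic phenylalanyl-tRNA synthetase differed between probe sets. Farsa, the catalytic alpha subunit, had 219 in HF+SFC, 304 in HF and 364 in Control, and Farsb, the beta subunit, had 2170.2 in HF+SFC, 1722 in HF and 1979.8 in Control. Farsa was thus lowest in HF+SFC, and Farsb was lowest in HF. For HF over Control, the 3 kept probe sets of Farsb gave -0.23 to -0.20, just beyond the SD, and the 2 of Farsa gave -0.26 and -0.85. For HF+SFC over HF, the probe sets of Farsb spread over -0.40 to 0.33 and those of Farsa over -0.47 to 0.30, so that the direction of that ratio was not settled for either subunit.

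The synthetases of the multisynthetase complex moved over a narrow range by the probe set used for each. Of the 7 kept members (Eprs, Iars, Kars, Lars, Mars, Qars and Rars), 6 were below 0 in HF over Control. The median was -0.10 and the range was -0.22 to 0.03. For the same ratio, other kept probe sets gave 0.39 for Iars, and -0.17 and 0.37 for Qars. Rars, the arginine enzyme, had 1369.6 in HF+SFC, 1233 in HF and 1437 in Control, and Eprs, the fused glutamate and proline enzyme, had 2979.7, 2767 and 3169 in the same order. HF was the lowest array for both. The ratio of HF over Control was -0.22 for Rars, beyond the SD, and -0.23 to -0.20 over the 3 kept probe sets of Eprs. The 12 cytosolic synthetases outside the complex had a median of -0.04 over a wider range of -0.49 to 0.29.

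Few cytosolic synthetases were higher in HF than in Control, and none by more than the SD of probe sets at their signal. Wars, the tryptophan enzyme and an interferon-inducible gene, had 239 in HF+SFC, 293 in HF and 239.9 in Control, so that only the HF array was high. Its ratio of HF over Control was 0.29, but its 4 kept probe sets ranged from -0.31 to 0.57. Vars, the valine enzyme, had 319 in HF+SFC, 356 in HF and 298 in Control (0.25, 1 probe set). Yars and Gars, for tyrosine and glycine, gave 0.05 and 0.04.

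**Figure D1:**
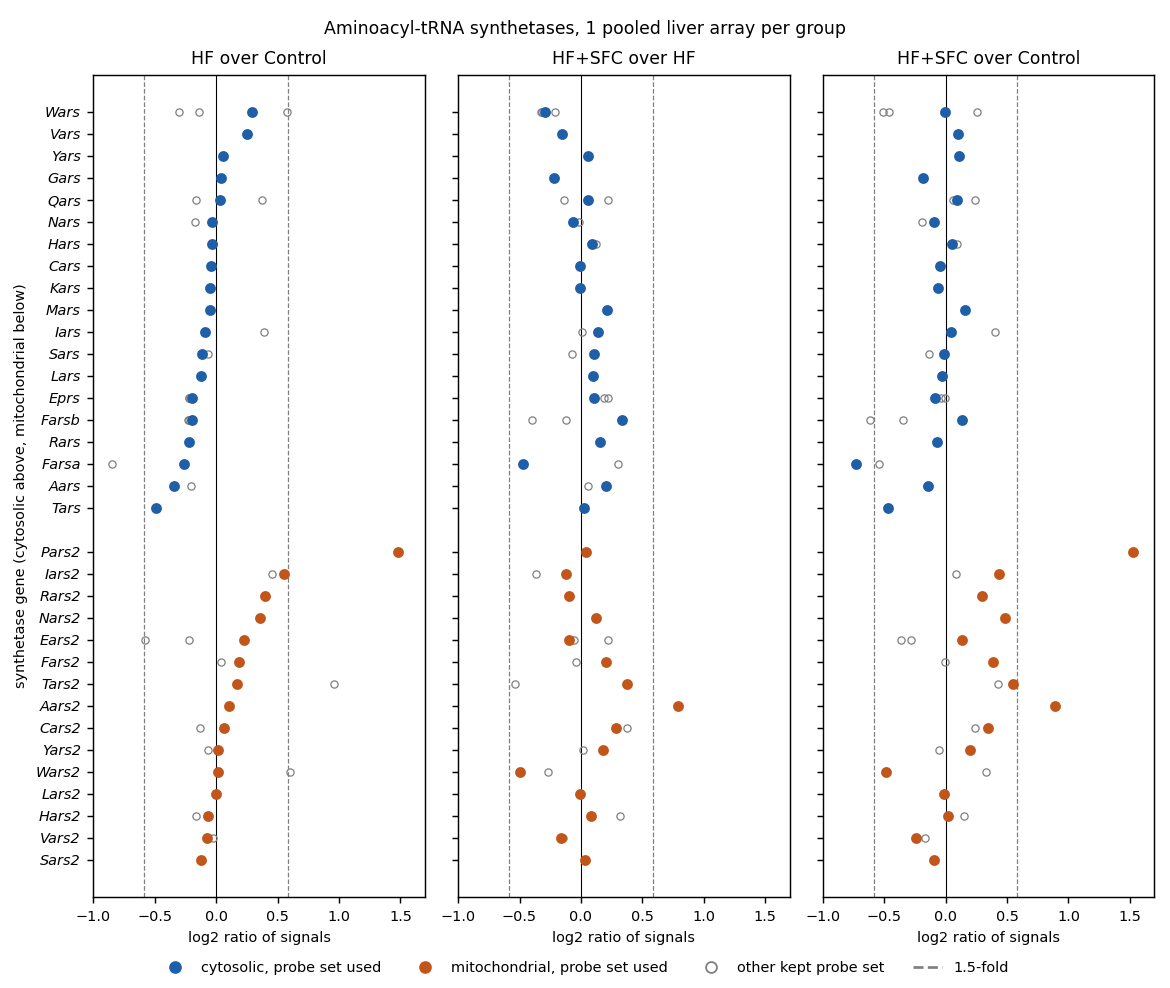
Log2 ratio of MAS5 signals (x axis) for each kept synthetase (y axis, cytosolic genes above and mitochondrial genes below) in HF over Control, HF+SFC over HF and HF+SFC over Control; filled points are the probe set used, open points other kept probe sets, dashed lines 1.5-fold. Of the cytosolic genes 14 of 19 lie left of 0 in HF over Control, and Pars2 stands alone at 1.48.

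The mitochondrial synthetases ran slightly the other way in HF over Control. The ratio was above 0 for 11 of 15 and the median was 0.11. With other scalings of the arrays this shift was not kept, since 7 of 15 were above 0 after quantile normalization (median -0.01) and 8 of 15 after median centring or lowess scaling (median 0.01 for each). The count beyond 1.5-fold was 1 higher and 0 lower of 15. Beyond the SD of probe sets, 4 mitochondrial synthetases were higher in HF (Iars2, Nars2, Pars2 and Rars2) and 0 were lower. By the same measure 4 cytosolic synthetases were lower (Aars, Farsb, Rars and Tars) and 0 were higher. The share higher was 26.7% of the mitochondrial synthetases, near the 25.7% of all kept genes. The share lower was 21.1% of the cytosolic synthetases, near the 20.3% of all kept genes.

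Pars2, the mitochondrial proline enzyme, had 158 in HF+SFC and 154 in HF, against 55.0 in Control. Both high-fat arrays were above Control, HF by 2.79-fold (1.48) and HF+SFC by 2.88-fold (1.53). The signal in Control was below the level of 76.9 at which probe sets were kept, and the ratio of HF over Control was 0.91 when signals were floored at the median of each array. The gene was read by 1 probe set.

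Iars2, Rars2 and Nars2 were higher on both high-fat arrays. Iars2, for isoleucine, had 1094 in HF+SFC and 1188 in HF, against 811 in Control, and its ratios of HF over Control were 0.55 (1.46-fold) and, for a second probe set, 0.46. Rars2, for arginine, had 636 in HF+SFC and 682 in HF, against 517 in Control (0.40 for HF over Control). Nars2, for asparagine, had 953 in HF+SFC and 875 in HF, against 682 in Control (0.36). These 3 ratios exceeded the SD of 0.196 for bright probe sets and none reached 1.5-fold.

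By the probe set used, the remaining mitochondrial synthetases lay between -0.12 and 0.23 in HF over Control. The lowest were Sars2 (-0.12), Vars2 (-0.08) and Hars2 (-0.07), which charge serine, valine and histidine. Other kept probe sets fell outside this range, with 0.96 for Tars2, 0.60 for Wars2, and -0.58 and -0.23 for Ears2. Those of Hars2 and Cars2 gave -0.16 and -0.13. The position of Tars2, Wars2 and Ears2 against Control thus depends on the probe set. Lars2, for leucine, read 671 in HF+SFC, 674 in HF and 677 in Control, a difference of -0.01 in each comparison, although 2 dim probe sets of the gene, below the kept level, gave 2.67 and 2.30 for HF over Control. Mars2, the mitochondrial methionine enzyme, was below the kept level with 24.4 in HF+SFC, 50.6 in HF and 74.5 in Control, and was not counted.

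**Figure D2:**
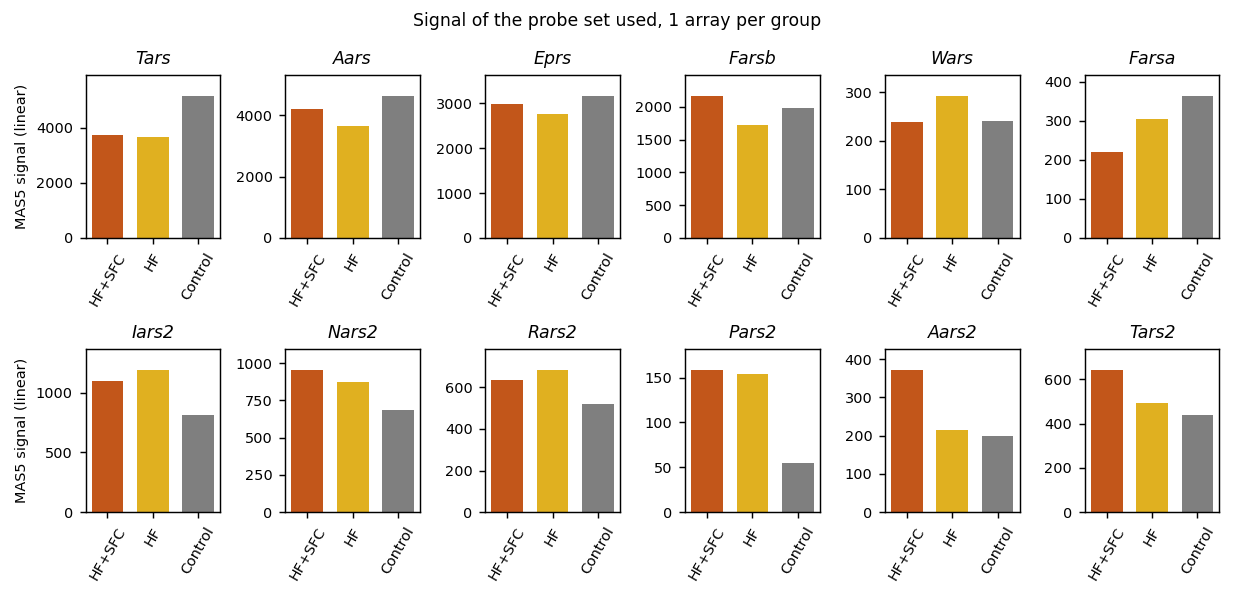
MAS5 signal (y axis, linear from 0, own scale for each gene) of the probe set used for 12 synthetases on the HF+SFC, HF and Control arrays; each bar is 1 array and there are no error bars. Tars stands at 3731 and 3665 in HF+SFC and HF, against 5152 in Control, whereas Pars2 stands at 158 and 154, against 55.0.

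Cytosolic and mitochondrial enzymes for the same amino acid could be set side by side for 12 amino acids. In HF over Control the mitochondrial ratio was above the cytosolic ratio for 7 and below it for 5, and the median difference of log2 ratios was 0.11 (range -0.33 to 0.66). The difference was widest for threonine (0.66), isoleucine (0.65), arginine (0.62), alanine (0.45) and asparagine (0.39). For each of these 5 the mitochondrial enzyme was above 0 and the cytosolic enzyme below 0 by the probe set used. A second kept probe set of Iars gave 0.39, so the isoleucine gap depends on the probe set. Aars2 was at -0.02 after quantile normalization. The reverse order was seen for valine (-0.33) and tryptophan (-0.28), where the cytosolic enzyme was the higher by the probe set used. For tryptophan this order depends on the probe set. A second kept probe set of Wars2 gave 0.60, and the 4 kept probe sets of Wars gave -0.31 to 0.57. For serine, histidine and tyrosine the difference lay between -0.03 and -0.01.

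**Figure D3:**
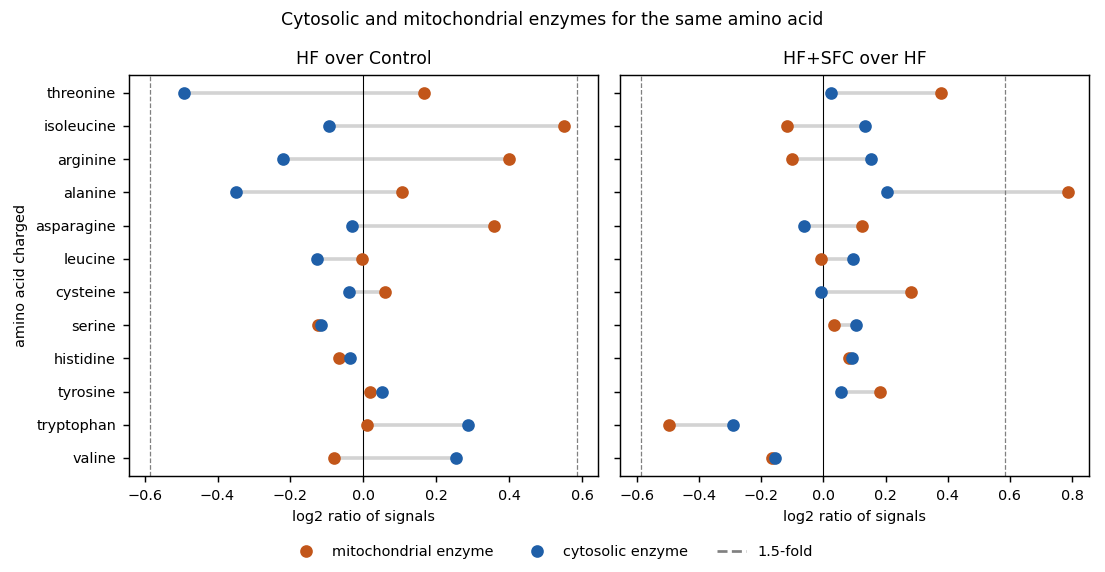
Log2 ratio of MAS5 signals (x axis) of the mitochondrial and the cytosolic enzyme for each of 12 amino acids (y axis), in HF over Control and HF+SFC over HF; a grey line joins each pair and dashed lines mark 1.5-fold. In HF over Control the widest gaps are those of threonine (0.66), isoleucine (0.65) and arginine (0.62).

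Addition of iron to the high-fat diet was read from HF+SFC over HF. The cytosolic median was 0.06, with 12 of 19 above 0, and the mitochondrial median was 0.04, with 9 of 15 above 0, against -0.01 over all kept genes. No cytosolic synthetase reached 1.5-fold in either direction, and of the mitochondrial ones 1 was higher and 0 were lower. Over all kept genes, 2.88% were higher and 5.33% were lower. In the upper 25% of signal, where 16 of the 19 cytosolic synthetases lay, only 39 of 6834 genes were higher and 76 lower. With no filter on signal, 1 mitochondrial synthetase was higher and 1 lower, the dim Mars2. The mitochondrial median was -0.02 when the median over the probe sets of each gene was taken, 0.10 in the upper 25% of signal, 0.13 after quantile normalization, 0.12 after lowess scaling and 0.16 after median centring, so that neither its size nor its direction was settled. The multisynthetase complex had 6 of 7 members above 0, with a median of 0.11 and a range of -0.01 to 0.21.

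Aars2, the mitochondrial alanine enzyme, was the only kept synthetase beyond 1.5-fold in HF+SFC over HF. Its signal was 372 in HF+SFC, against 215 in HF and 200.05 in Control, so that HF+SFC stood above both other arrays. The ratio was 0.79 (1.73-fold) over HF and 0.89 (1.86-fold) over Control, beyond the SD for probe sets of that signal, and rested on 1 probe set. In the same comparison Aars, the cytosolic alanine enzyme, was 0.20 above HF, so that the ratios of the alanine pair differed by 0.58.

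Some other mitochondrial synthetases were modestly higher in HF+SFC than in HF. Tars2, for threonine, had 642 in HF+SFC, 494 in HF and 440.3 in Control (0.38 over HF), but a second kept probe set gave -0.53 for HF+SFC over HF. Cars2, for cysteine, had 396 in HF+SFC, 326 in HF and 313 in Control, with 0.28 and 0.37 over HF from its 2 kept probe sets. Yars2 and Fars2, for tyrosine and phenylalanine, stood 0.18 and 0.20 above HF, but their second kept probe sets gave 0.01 and -0.04. By the probe set used, all 7 class II mitochondrial synthetases were above 0 (median 0.12), and 2 of the 8 class I enzymes were (median -0.10). Over all kept genes, 48.8% were above 0. Of the class II enzymes, Sars2 (0.03), Pars2 (0.04) and Hars2 (0.08) were within the SD of probe sets. Tars2 and Fars2, also of class II, had the second probe sets below 0 given above.

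The lowest mitochondrial ratio in HF+SFC over HF belonged to Wars2, the tryptophan enzyme, with 154 in HF+SFC, against 217 in HF and 216 in Control. It was 1.41-fold below HF (-0.50). A second probe set gave -0.27 for HF+SFC over HF but 0.60 for HF over Control, where the probe set used gave 0.01, so that the gene's position against Control was not settled. Vars2 (-0.17) and Iars2 (-0.12) followed.

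Among the cytosolic enzymes in HF+SFC over HF, Farsb (0.33), Mars (0.21) and Aars (0.20) were the highest, and Farsa (-0.47), Wars (-0.29) and Gars (-0.22) the lowest. Mars, the methionine enzyme, had 2194 in HF+SFC, 1892 in HF and 1965 in Control. Gars, the enzyme for glycine in both compartments, had 1646 in HF+SFC, 1916 in HF and 1866 in Control, so that HF+SFC was the low array. Both differences were beyond the SD and came from 1 probe set each. The 4 kept probe sets of Wars gave -0.32 to -0.21 and were all below 0. With 0.172 as the SD for bright and 0.451 for dimmer probe sets, 3 cytosolic synthetases were higher (Aars, Farsb and Mars) and 2 lower (Farsa and Gars). Of the mitochondrial ones, 4 were higher (Aars2, Fars2, Tars2 and Yars2) and 1 was lower (Wars2). The share higher was 15.8% (cytosolic) and 26.7% (mitochondrial), against 14.3% of all kept genes. The share lower was 10.5% and 6.67%, against 17.3%. These counts depend on the probe set. Second kept probe sets gave 0.06 for Aars, -0.04 for Fars2, -0.53 for Tars2 and 0.01 for Yars2, and those of Farsa and Farsb differed in sign.

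Against Control, the high-fat diet with iron gave a mitochondrial median of 0.30 (11 of 15 above 0) and a cytosolic median of -0.03 (7 of 19 above 0), where all kept genes had 0.02. Beyond 1.5-fold, 2 mitochondrial synthetases were higher, Pars2 and Aars2, and 0 were lower. These counts depend on the filter on mean signal, which keeps Pars2 despite its dim Control signal and leaves out Mars2. With no filter 2 were higher and 1 was lower, Mars2, with 24.4 in HF+SFC against 74.5 in Control. Among the cytosolic ones 0 were higher and 1 was lower, Farsa, at 1.66-fold below Control (-0.73). Its second kept probe set gave -0.54, and with the median over all its probe sets the ratio was 0.00. Over all kept genes, 9.20% were higher and 6.88% lower in this comparison. Unlike in HF over Control, the mitochondrial median here stayed between 0.28 and 0.32 under the other 3 scalings.

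Beyond the SD of probe sets, 7 of 15 mitochondrial synthetases were higher in HF+SFC than in Control (Aars2, Fars2, Iars2, Nars2, Pars2, Rars2 and Tars2) and 0 were lower. Over all kept genes, 22.5% were higher and 19.3% lower. Second kept probe sets gave -0.003 for Fars2, 0.09 for Iars2 and 0.43 for Tars2 in this comparison. Of the cytosolic synthetases, 0 were higher and 2 lower (Farsa and Tars). The mitochondrial ratio was above the cytosolic ratio for 8 of the 12 amino acids, with a median difference of 0.23 and the widest gaps for alanine (1.04) and threonine (1.01). Sharing of arrays between the 3 comparisons means that these counts repeat part of those already given.

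Probe sets of a synthetase often differed, which limits single ratios. Of 19 kept synthetases with 2 or more kept probe sets, all had the same sign for 13 in HF over Control, 12 in HF+SFC over HF and 13 in HF+SFC over Control. Ears2, the mitochondrial glutamate enzyme, ranged from -0.58 to 0.23 over 3 probe sets in HF over Control, and Qars, the cytosolic glutamine enzyme, from -0.17 to 0.37. The SD between kept probe sets of the synthetases was 0.269, 0.228 and 0.244 in the 3 comparisons, in the order given above.

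The genes with the response element core in their promoter window did not separate from the other ATF4-responsive synthetases with a window. In HF over Control the 5 with a match gave -0.35 for Aars, 0.04 for Gars, -0.10 for Iars, -0.49 for Tars and 0.05 for Yars, and the 3 without gave -0.20 for Eprs, -0.05 for Mars and -0.12 for Sars, so that the groups overlapped. All 12 ATF4-responsive synthetases had medians of -0.07 in HF over Control and 0.08 in HF+SFC over HF. The 7 other kept cytosolic synthetases had -0.05 and 0.06.

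Other known targets of ATF4 and of amino acid shortage were mixed. Atf4 itself had 2486 in HF+SFC, 2379 in HF and 2747 in Control (-0.21 for HF over Control). Of 24 kept genes of a list of 30, 5 were higher and 3 lower by 1.5-fold in HF over Control (median 0.15), where 11.3% of all kept genes were higher and 5.84% lower. Fgf21, a liver hormone, had 365 in HF+SFC and 397 in HF, against 1381 in Control (-1.80). Slc7a5, a leucine transporter, gave -0.89, and Stc2, a secreted glycoprotein, was higher (1.09, and 0.78 for a second kept probe set). The Control signals of these 2 probe sets of Stc2, 79.1 and 76.8, were near the kept level. Phgdh, the first enzyme of serine synthesis, gave 1.67, with 68.5 in HF+SFC, 221 in HF and 69.5 in Control. Its signals in HF+SFC and Control were below the kept level of 76.9, and its other kept probe sets gave 0.24 and -0.53.

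In HF+SFC over HF, 2 of these 24 genes were higher and 2 lower by 1.5-fold (median -0.05), where 2.88% of all kept genes were higher and 5.33% lower. Asns, which makes asparagine and is a widely used ATF4 target, had 215 in HF+SFC, against 118 in HF and 121 in Control (0.87 over HF), and a second probe set below the kept level gave 0.01. Slc7a5 gave 1.42, with 126 in HF+SFC, 47.0 in HF and 87.3 in Control, but it was read by 1 probe set whose HF signal was below the kept level of 76.9, which limits both of its ratios. Stc2 was lower (-1.08), with 79.9 in HF+SFC, 169 in HF and 79.1 in Control, so that only its HF signal stood clear of the kept level. A second kept probe set gave -0.95, with 68.2 in HF+SFC, below that level, and 132 in HF. Phgdh gave -1.69, with its HF+SFC signal below the kept level, and its other kept probe sets gave -0.48 and 0.90. Neither direction was shared by the list as a whole.

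The genes for the kinase that senses uncharged tRNA and for its activator differed between the arrays. Eif2ak4, which encodes GCN2, had 176 in HF+SFC, 252 in HF and 135 in Control. It was highest in HF, 1.86-fold above Control (0.90) and with HF+SFC 0.51 below HF, and was the 1 of 8 kept genes of its list beyond 1.5-fold in HF over Control, a share near the 11.3% of all kept genes that were higher. A second probe set, below the kept level, gave -3.53 for HF over Control. Gcn1, the ribosome-bound activator of GCN2, had 391 in HF+SFC, 286 in HF and 222 in Control, so that HF+SFC was the high array. The list had medians of 0.21 in HF over Control and -0.16 in HF+SFC over HF.

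Among 12 genes, all kept, for proteins that act beside the mitochondrial synthetases, 8 were above 0 and 4 below 0 in HF over Control (median 0.22). By 1.5-fold 2 were higher, Gatb and Hsd17b10, and 0 lower, a share near that of all kept genes (11.3% higher). Gatb and Qrsl1 encode subunits of the amidotransferase that converts misacylated glutamyl-tRNA to glutaminyl-tRNA in mitochondria, where no separate glutaminyl-tRNA synthetase is known. Gatb had 669 in HF+SFC and 689.9 in HF, against 399 in Control (0.79 for HF over Control, 0.37 for a second probe set), and Qrsl1 had 693 and 664, against 482 (0.46). The third subunit gene, Gatc, did not follow, with 697 in HF+SFC, 672 in HF and 736 in Control (-0.13).

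Mtfmt, which formylates the initiator methionyl-tRNA of mitochondria, had 441 in HF+SFC and 409 in HF, against 285 in Control, and its 2 kept probe sets gave 0.52 and 0.99 for HF over Control. Hsd17b10, a subunit of mitochondrial RNase P that also acts in isoleucine breakdown, had 12244 in HF+SFC and 10962 in HF, against 6118 in Control (0.84, and 0.88 for a second probe set). Both high-fat arrays were above Control for these genes. In HF+SFC over HF, 0 of the 12 genes reached 1.5-fold (median 0.05).

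The 10 genes for the scaffold of the multisynthetase complex, for editing of mischarged tRNA and for selenocysteine had a median of 0.19 in HF over Control, and none reached 1.5-fold. Aimp1, a scaffold subunit, had 1063 in HF+SFC, 844 in HF and 1053 in Control, so that HF was the low array (-0.32), as it was for Eprs and Rars. Eef1e1, another subunit of the complex, had 649.8 in HF+SFC, 761 in HF and 892 in Control. Sepsecs, which completes selenocysteinyl-tRNA, had 1847 in HF+SFC, 1557 in HF and 1255 in Control. The subunits of the complex thus had no common order over the arrays.

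**Figure D4:**
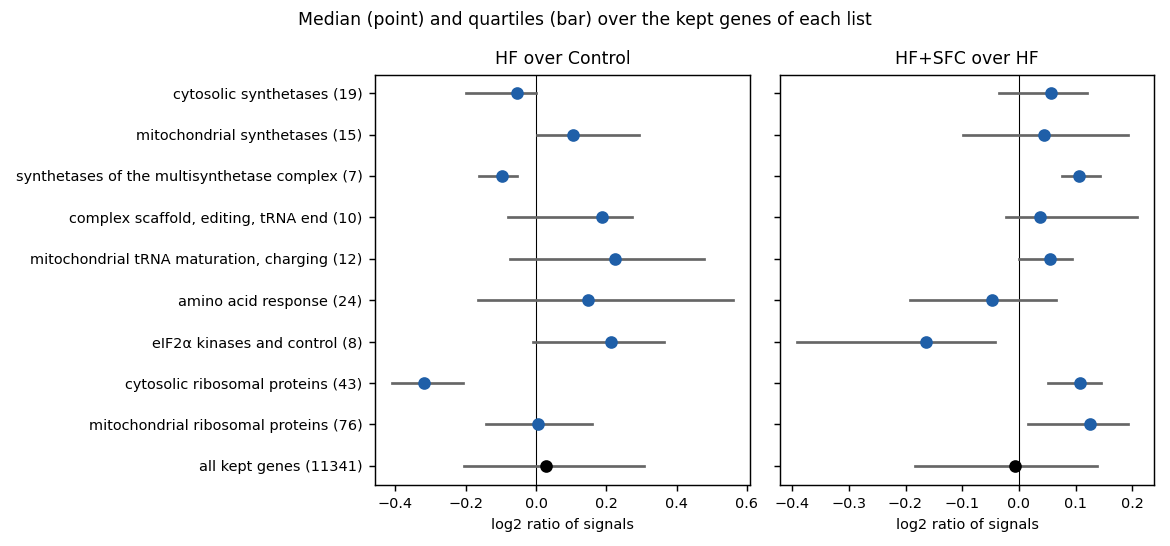
Median (point) and quartiles (bar) of the log2 ratio of MAS5 signals (x axis) over the kept genes of each list, number of genes in brackets (y axis), for HF over Control and HF+SFC over HF; the bars show spread between genes and not an error over animals. In HF over Control the cytosolic synthetases have a median of -0.05, against -0.32 for cytosolic ribosomal proteins and 0.03 for all kept genes.

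The ribosomes that use the charged tRNAs gave a scale for these shifts. The 43 kept cytosolic ribosomal protein genes had medians of -0.32 in HF over Control and 0.11 in HF+SFC over HF, and 40 of them were below 0 in HF over Control. The cytosolic synthetases, at -0.05 and 0.06, had the same signs and smaller medians. The 76 mitochondrial ribosomal protein genes had medians of 0.01 and 0.13, and the mitochondrial synthetases 0.11 and 0.04.

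Cell type markers also differed between the arrays, and in a whole liver sample fewer cells of a type and less RNA per cell cannot be told apart. Of 16 macrophage markers, all kept, 15 were above 0 in HF over Control, and by 1.5-fold 5 were higher and 0 lower. Over all kept genes, 11.3% were higher and 5.84% lower by 1.5-fold. The macrophage markers had a summed signal of 29850 in HF+SFC, 40185 in HF and 30181 in Control. Of 11 stellate cell markers, all kept, 11 were above 0 and 9 were higher by 1.5-fold, with sums of 14698, 20408 and 12411 in the same order. The 11 hepatocyte markers were all below 0 in HF over Control (median -0.09), 1 of them by 1.5-fold, with 424363, 418921 and 459136. Interferon-responsive genes, the group to which Wars belongs in background knowledge, had a median of 0.71 in HF over Control (9 of 17 higher by 1.5-fold). In HF+SFC over HF their median was -0.41 (6 of 17 lower by 1.5-fold). The part of these shifts in the synthetase ratios was not tested.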

How the data were processed

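Liver RNA of 3 mixed samples was read on 3 arrays. The deposited values are linear MAS5 intensities; its version is not given in the sources used here. Each array had been scaled by the authors to a common level, with a 2% trimmed mean of 500.004 on every array, so that differences in total signal had been removed. Median signals were 80.2 in HF+SFC, 87.0 in HF and 81.5 in Control. The number of arrays limits the precision.

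Of 45037 probe sets that were not controls, 34945 named 1 gene in the platform annotation, 932 named several and 9160 were not listed. Genes were named only from the first kind, and 72 such probe sets belonged to synthetases. For each gene the probe set of highest mean log2 signal was used, and genes in the upper 50% of mean signal (76.9 or more) were kept. Ratios were computed in Python 3.11.15 with pandas 2.3.3 and tested on simulated data. The threshold of 1.5-fold is that of the study.

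Synthetases and gene lists were chosen with earlier results of these data known. The rule named synthetases beyond 1.5-fold in any comparison, the 3 highest and 3 lowest of each compartment in HF over Control and HF+SFC over HF, synthetases below the kept level by their signals, and up to 4 genes beyond 1.5-fold of each other list. Other genes named (among them Eprs, Rars, Nars2, Lars2, Fars2, Yars2, Ears2, Qars, Atf4, Gatc, Qrsl1, Aimp1, Eef1e1 and Sepsecs) were chosen after their values were seen. Alternatives were quantile normalization, median centring, lowess scaling (fraction 0.3), no filter, the upper 25%, a floor at the array median, a pseudocount of 16, the median over probe sets, no probe sets with suffix _x_at or _s_at, and a 2-fold threshold. Array values carry no genome build, and promoter windows are from RefSeq on GRCm38.p6. The sequence around the match in Aars is not reported here.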

Additional observations from a re-analysis of the deposited data

How the results depend on the processing

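No paired analysis was possible because each group has 1 array. For HF over Control, the cytosolic median was -0.15 with median centring and that of the mitochondrial synthetases was -0.0141 with quantile normalization, 0.0116 with median centring and 0.0130 with lowess scaling. The count of cytosolic synthetases beyond 1.5-fold was 1 with median centring (Tars), and the mitochondrial count was 0 in the upper 25% of signal and 2 with the median over probe sets. For HF+SFC over HF, median centring gave medians of 0.18 (cytosolic) and 0.16 (mitochondrial), the median over probe sets gave a mitochondrial median of -0.0159, and the mitochondrial count was 2 with no filter, 0 in the upper 25% and 0 at 2-fold. For HF+SFC over Control, the cytosolic count was 0 in the upper 25%, 2 without probe sets of suffix _x_at or _s_at and 0 at 2-fold, and the mitochondrial count was 0 in the upper 25% and 1 at 2-fold. The ratio of Farsa was 0.00487 with the median over probe sets. The upper 25% leaves out Pars2, Aars2 and Farsa by construction, and the cause of the other differences was not tested.

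Median centring moved the median of all kept genes to -0.07 in HF over Control and to 0.11 in HF+SFC over HF, and medians of the synthetases are to be read against that shift. Over all kept genes, 327 were higher and 605 lower by 1.5-fold in HF+SFC over HF, against 452 and 459 after quantile normalization, 451 and 460 after lowess scaling and 535 and 397 after median centring. For HF over Control the counts were 1282 and 662, against 1078 and 839, 1092 and 797, and 980 and 954. For the synthetases named by the rule there were 486 values under alternatives. Of these, 21 had another sign than the value reported, which was below 0.2 in size for 14 of them. The other 7 belonged to Farsa, Farsb, Tars2 and Wars and came from taking other probe sets of the gene. Synthetases not named by the rule, such as Ears2 and Qars, were not among the 486 values. Dim probe sets are the least precise, which touches Pars2 in Control most.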

Other observations

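Over all kept genes with a promoter window, 258 held the response element core TGATGNAA and 8950 did not. In HF over Control, 16.7% of the genes with it were higher by 1.5-fold and 5.43% lower, and of those without it 10.9% were higher and 5.52% lower, with medians of 0.03 and 0.02. In HF+SFC over HF, 1.94% were higher and 6.98% lower with it, and 2.84% and 5.12% without it. These are shares of genes on 1 array a group, and no test was made. None of the 5 synthetases with the core was among the genes beyond 1.5-fold in either comparison.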
